A study of Homo sapiens with 4 samples.

Results

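The genes described here are 33 regulators and direct transcriptional targets of p53 outside the BCL2 family, among 60483 Ensembl gene identifiers counted in each library. They were taken from a list of symbols chosen for their known roles, by a rule that sets no threshold on a measured value but with earlier results of these data known. All 33 were matched to an identifier and had enough reads to be tested. The samples were 2 libraries of H9 cells labelled SLC35F2 KO and 2 libraries of H9 cells labelled control. H9, also called WA09, is an established human embryonic stem cell line, and SLC35F2 encodes a membrane solute carrier. No treatment or time is given for either group. The labels leave unsaid how the knockout was made and whether replicates are separate cultures, clones or repeat preparations, so the p-values reflect spread among libraries that may be technical.

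p53 is a transcription factor that DNA damage and other stresses stabilise. Its ubiquitin ligase MDM2 and the related MDM4 hold it in check, and MDM2 is itself a p53 target, which closes a feedback loop. Targets stop the cell cycle through CDKN1A, repair DNA, alter metabolism and sensitise cells to death, and in human embryonic stem cells the pathway is known for a strong tendency towards death after damage. Several of these genes are also switched on by other routes, among them immediate early signalling for BTG2, PLK2, PLK3 and PHLDA1, and the ATF4 stress response for GDF15 and SESN2.

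The libraries held 27824693 to 37978705 reads assigned to genes. SLC35F2 had 12.1 and 9.65 CPM (counts relative to library totals scaled by TMM factors) in the KO libraries, against 41.1 and 27.1 CPM in the controls, a log2 fold change of -1.65 ± 0.35 (SE) for which edgeR's adjusted p was 0.58 (0.00124 unadjusted). It was therefore not called over all genes, and its RNA was still present in both KO libraries. All 12 markers of pluripotency averaged at least 1 CPM, with summed levels of 9368 and 6416 CPM in KO 1 and KO 2 and 8762 and 8876 CPM in control 1 and control 2. Their median log2 difference from the control mean was 0.07 in KO 1 and -0.41 in KO 2. Of the 12, 11 were lower in KO 2 than in KO 1, where 9499 of 19027 genes tested were. None was called, and 1 was lower in KO at an unadjusted edgeR p below 0.05, where 3% of all genes were. Reads are from bulk samples, where fewer cells of a type and less RNA per cell cannot be told apart.

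No p53 regulator or target was called in KO against control. Of 33 members, 0 had an edgeR adjusted p below 0.05, where 0.0263% of all 19027 genes tested did, and DESeq2 and limma-voom also called 0. At an unadjusted p below 0.05 there was 1 member, TRIM22, which is 3.03% of the members against 4.06% of all genes. By direction, 1 member was lower in KO (background 3%) and 0 were higher (background 1.06%). The 2 groups overlapped for 30 members, 90.9% against 67.8% of all genes. Both KO libraries lay below both controls for RRM2B, TRIAP1 and TRIM22 (9.09% against 16.3%), and both lay above for 0 members (background 15.8%). The members' median log2 fold change was -0.17, beside 0.03 for all genes, and 25 of 33 (75.8%) had a value below 0, against 47.2% of all genes. With single libraries left out, 1 member was called without KO 1 (CCNG2, where 5.31% of all genes passed) and 4 without KO 2 (CDKN1A, BTG2, PLK2 and GDF15, where 0.927% passed), and 0 without either control. The lean below 0 depended on single libraries: without control 2, 11 members had a value below 0 and the median was 0.14, and without KO 1, 18 did and the median was -0.065.

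**Figure D1:**
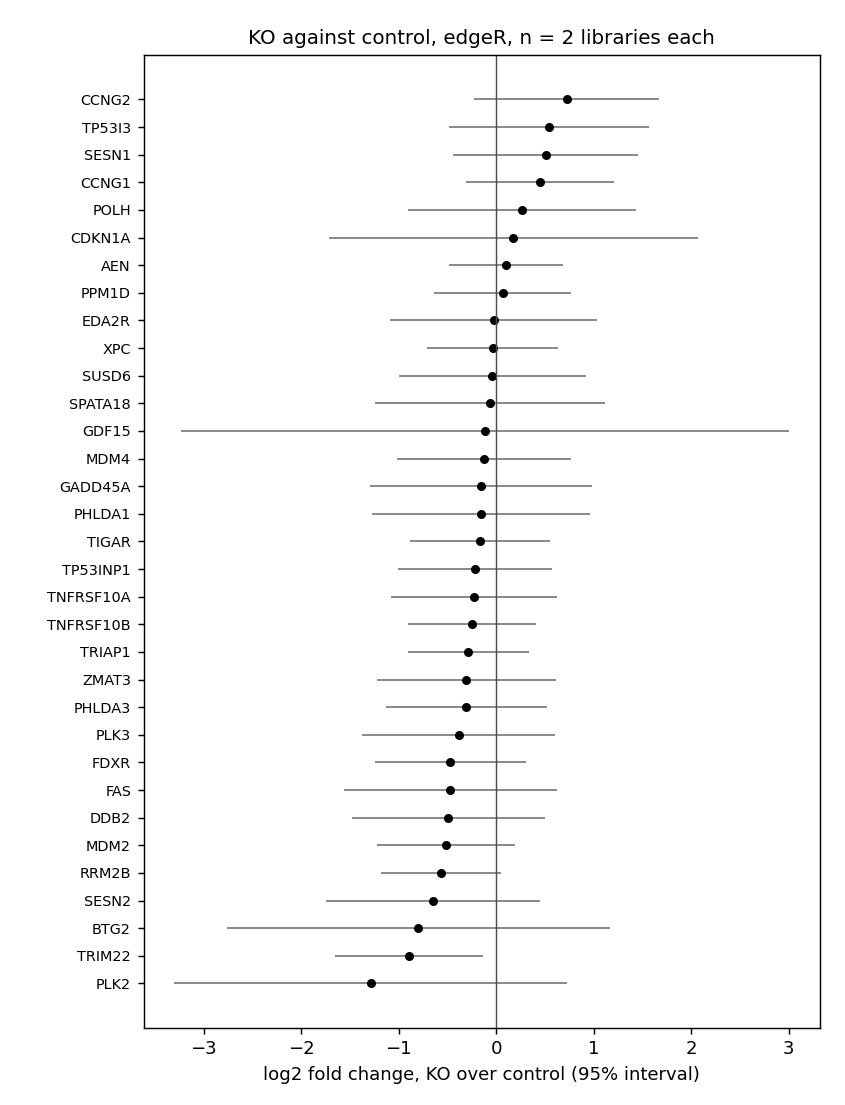
Log2 fold change of each of the 33 genes, KO over control (horizontal axis), with lines for 95% confidence intervals from edgeR (2 libraries each). Intervals of 32 genes include 0, and that of TRIM22 ends at -0.14 without an adjusted call. GDF15 has the widest interval, from -3.23 to 3.0.

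The spread lay within the groups rather than between them. Control 2 was the highest of the 4 libraries for 22 members (66.7%), against 25.8% of all genes, and KO 1 was the lowest for 16 (48.5%), against 24.8%. KO 1 lay below both controls for 18 members, 54.5% against 35.7% of all genes, and above both for 3 (9.09% against 35%), PPM1D, AEN and TP53I3. KO 2 lay above both controls for 7 members (21.2% against 38.6%) and below both for 9 (27.3% against 37.7%). The plot of levels by library shows this order gene by gene.

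**Figure D2:**
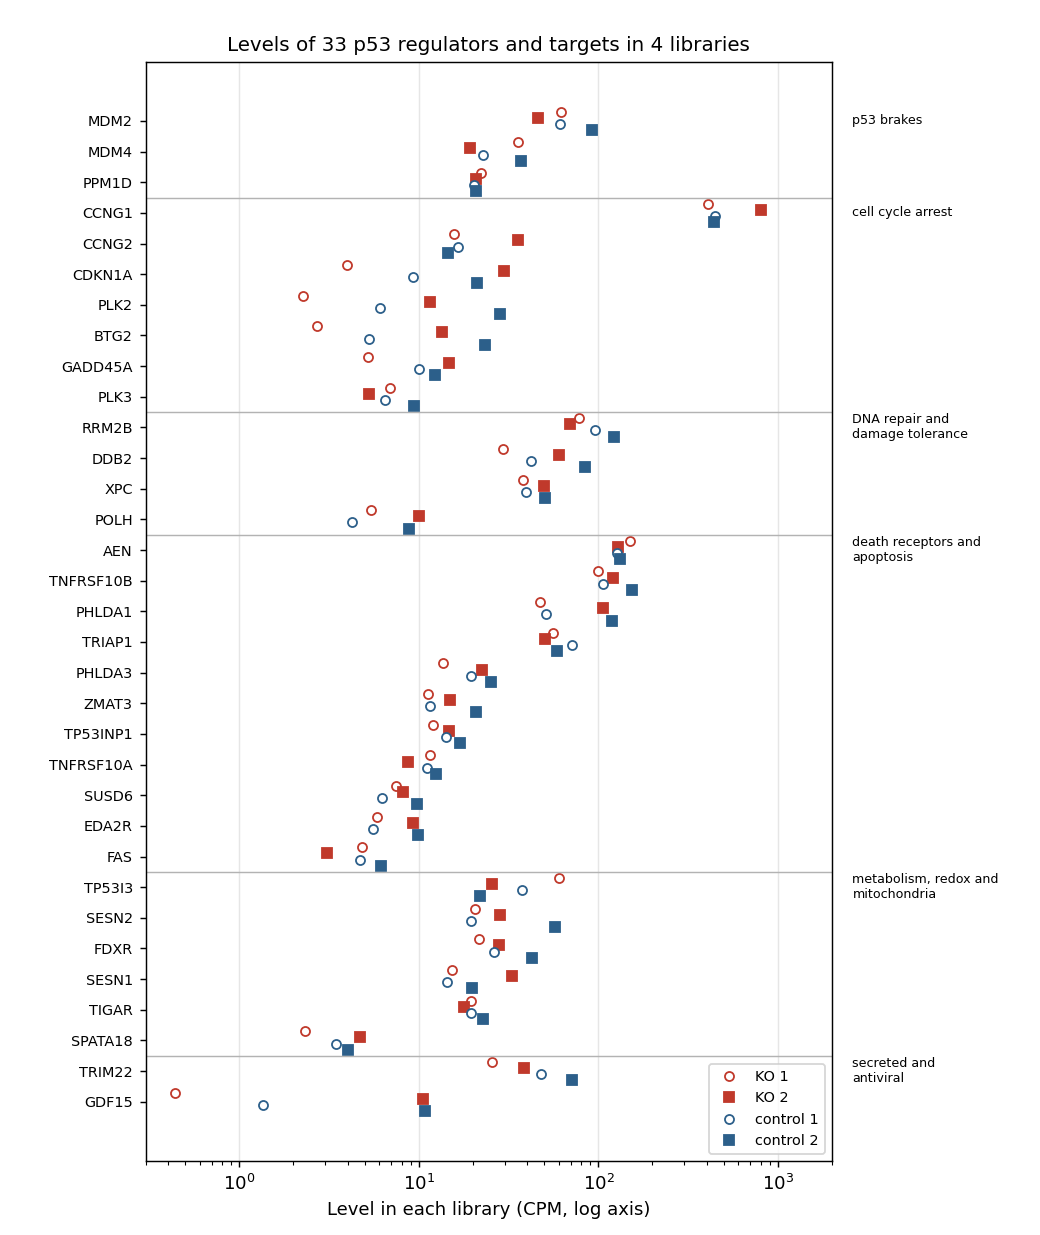
Level of each gene in CPM on a log axis, in KO 1 and KO 2 (red) and control 1 and control 2 (blue), grouped by role. Circles mark libraries numbered 1 and squares those numbered 2. CCNG1 lies farthest to the right, at 801 CPM in KO 2, and GDF15 farthest to the left, at 0.436 CPM in KO 1.

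The brakes on p53 did not stand higher in KO 2, the library in which CDKN1A was highest. MDM2, the ubiquitin ligase that marks p53 for destruction, had 61.6 CPM in KO 1 and 46.2 CPM in KO 2, against 61.4 CPM in control 1 and 92.2 CPM in control 2. KO 1 thus stood at the level of control 1, with KO 2 below it and control 2 above it. The log2 fold change of MDM2 was -0.51 ± 0.31 (SE), with an interval from -1.22 to 0.20 and an edgeR adjusted p of 0.997. It was -0.19 without control 2 and -0.32 without KO 2. MDM4, a relative of MDM2 that masks the activation domain of p53, had 35.7 and 19.2 CPM in KO against 22.8 and 36.9 CPM in control (log2 fold change -0.12, interval -1.01 to 0.77). PPM1D, the phosphatase WIP1 that switches off damage signalling, was nearly even, with 22.3 and 20.8 CPM in KO against 20.2 and 20.9 CPM in control (0.07, interval -0.63 to 0.77).

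The promoters of MDM2 and CDKN1A are shown because these textbook targets took opposite sides in KO 2. The windows of 250 bases before the RefSeq start site used (GRCh38.p14) were available for 26 of the 33 members. They were searched on both strands for the p53 element (2 copies of a 10-base repeat with no gap, at most 3 mismatches of 20, core C and G kept), the SRF CArG box, the AP-1 letters TGANTCA, the CRE letters TGACGTCA and the TATA letters TATAAA, none of which overlapped another in these members. The windows are printed as far as they lie outside annotated exons, on the plus strand, with matches in capitals. The MDM2 stretch is chr12:68808774-68809001 and holds a match to the p53 element under this rule and, upstream of it, TGACTCA. Farther downstream, agttaagtcctgacttgtct lacks the core C in its first repeat, so the rule left it unmarked. The CDKN1A stretch is chr6:36678464-36678657, and its whole window held none of the letters searched. In GENCODE 29 the MDM2 gene begins at chr12:68808176 and the CDKN1A gene at chr6:36676460. Both windows thus lie inside the annotated genes, and the start sites used are internal ones.
MDM2: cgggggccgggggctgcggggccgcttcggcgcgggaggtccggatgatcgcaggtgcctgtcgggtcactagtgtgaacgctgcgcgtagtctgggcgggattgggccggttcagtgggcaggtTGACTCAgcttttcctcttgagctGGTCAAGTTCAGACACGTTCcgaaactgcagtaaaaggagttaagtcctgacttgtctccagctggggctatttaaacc
CDKN1A: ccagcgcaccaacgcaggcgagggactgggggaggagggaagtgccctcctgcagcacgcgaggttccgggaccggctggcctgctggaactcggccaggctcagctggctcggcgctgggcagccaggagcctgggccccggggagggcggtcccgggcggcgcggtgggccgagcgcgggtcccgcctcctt
A p53 element under this rule was present in 3 of the 26 windows, against 0.914% of 35116 promoters of the same length. Besides MDM2 these were AEN (chr15:88621306-88621325, plus strand) and SESN1 (chr6:109009018-109009037, minus strand), also inside the annotated genes. Their matched bases are given for comparison with MDM2.
MDM2 element: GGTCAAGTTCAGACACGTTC
AEN element: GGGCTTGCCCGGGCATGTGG
SESN1 element: GGACAAGTCTCCACAAGTCA
The MDM2 and AEN matches have 2 mismatches to the consensus and the SESN1 match has 3. TGANTCA was found in MDM2 and EDA2R (6.57% of all promoters), TGACGTCA in PPM1D (1.65%) and TATAAA in GDF15 (10.7%), and the CArG box in 0 members (1.16%). A match describes these letters only, and response elements farther from the start were not searched. The members were picked as known regulators and targets of p53, so their share of p53 elements reflects that choice and is no result of these libraries.

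CDKN1A encodes p21, the inhibitor of cyclin-dependent kinases through which p53 arrests the cycle. It had 3.96 CPM in KO 1 and 29.8 CPM in KO 2, against 9.25 CPM in control 1 and 20.97 CPM in control 2, from 109, 1019, 349 and 745 reads. KO 1 was the lowest and KO 2 the highest of the 4 libraries, with the controls between them. Reads of mitochondrial genes followed the same extremes, at 5.15% of assigned reads in KO 1 and 8.97% in KO 2, against 7.38% in control 1 and 6.49% in control 2. Reads in no annotated feature were 7.41% in KO 1 and 4.59% in KO 2, against 8.4% in control 1 and 10.8% in control 2, and the part of either in the level of CDKN1A was not tested. The group means, 16.9 ± 18.3 CPM in KO and 15.1 ± 8.29 CPM in control (SD, n = 2 each), differed by a log2 fold change of 0.17 ± 0.81 (SE), with an interval from -1.72 to 2.07 and an edgeR adjusted p of 0.997. The sign of this value turned with library size only, with limma-voom, with the replicate block and without control 1. Without KO 2, CDKN1A was lower in KO and called (log2 fold change -1.93 ± 0.49, edgeR adjusted p = 0.0145), and without KO 1 it was higher and not called (0.997 ± 0.38, adjusted p = 0.107). Fits with 1 KO library take its variation to equal that of the controls.

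CDKN1A stood high in KO 2 together with some members and apart from others. On the log2 scale (CPM with a prior count of 2) it differed from the control mean by 1.09 in KO 2 and by -1.798 in KO 1. Its value in KO 2 was 0.51 against control 2 alone and 1.68 against control 1 alone. The median of the other 32 members was -0.03 in KO 2 and -0.32 in KO 1. For KO 2 minus KO 1, the other members had a median of 0.40, with 21 of 32 above 0, beside 2.89 for CDKN1A and a median of 0.0015 for all genes. In KO 2, 3 members stood at least 1 above the control mean, CDKN1A, CCNG2 and GDF15, which is 9.09% of the members against 6.09% of all genes, and 0 members stood at least 1 below it (background 13.5%). GDF15 did not lie above both controls there, with 10.5 CPM in KO 2 against 1.35 CPM in control 1 and 10.8 CPM in control 2. The 7 members above both controls in KO 2 were CDKN1A, CCNG1, CCNG2, GADD45A, POLH, SESN1 and SPATA18 (21.2% against 38.6% of all genes). In KO 1, 7 members stood at least 1 below the control mean (21.2% against 8.28%), CDKN1A, BTG2, PLK2, GADD45A, DDB2, GDF15 and TRIM22, and TP53I3 stood at least 1 above it (3.03% against 1.45%). Between the KO libraries CDKN1A was 7.52-fold higher in KO 2 than in KO 1 (95% exact binomial interval 6.17 to 9.25, counting error only), the second largest difference of the members, with 1 library on each side and so no test. This difference was at percentile 98.9 of all genes tested.

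The members fell into unlike patterns between the KO libraries. Of 33, 9 were at least 1 log2 unit higher in KO 2 than in KO 1 (27.3% against 12.2% of all genes), namely CDKN1A, BTG2, CCNG2, PLK2, GADD45A, DDB2, PHLDA1, SESN1 and GDF15. Only TP53I3 was lower by as much (3.03% against 12.9%). Of those 9, CDKN1A, BTG2, PLK2, PHLDA1 and GDF15 were also at least 1 log2 unit higher in control 2 than in control 1, a difference seen in 7 members (21.2% against 8.41% of all genes). In DDB2 the controls differed by 0.99. CCNG2, SESN1 and GADD45A were above both controls in KO 2, while their controls differed by -0.19, 0.47 and 0.31 in that order. MDM2, MDM4, PPM1D, PLK3, RRM2B, FAS, TNFRSF10A, TRIAP1, AEN and TIGAR, like TP53I3, were lower in KO 2 than in KO 1. Across the 33 members the KO 2 minus KO 1 difference had a Spearman correlation of 0.46 with the control 2 minus control 1 difference, and across all 19027 genes 0.31, as a description over genes that share libraries and depth.

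**Figure D3:**
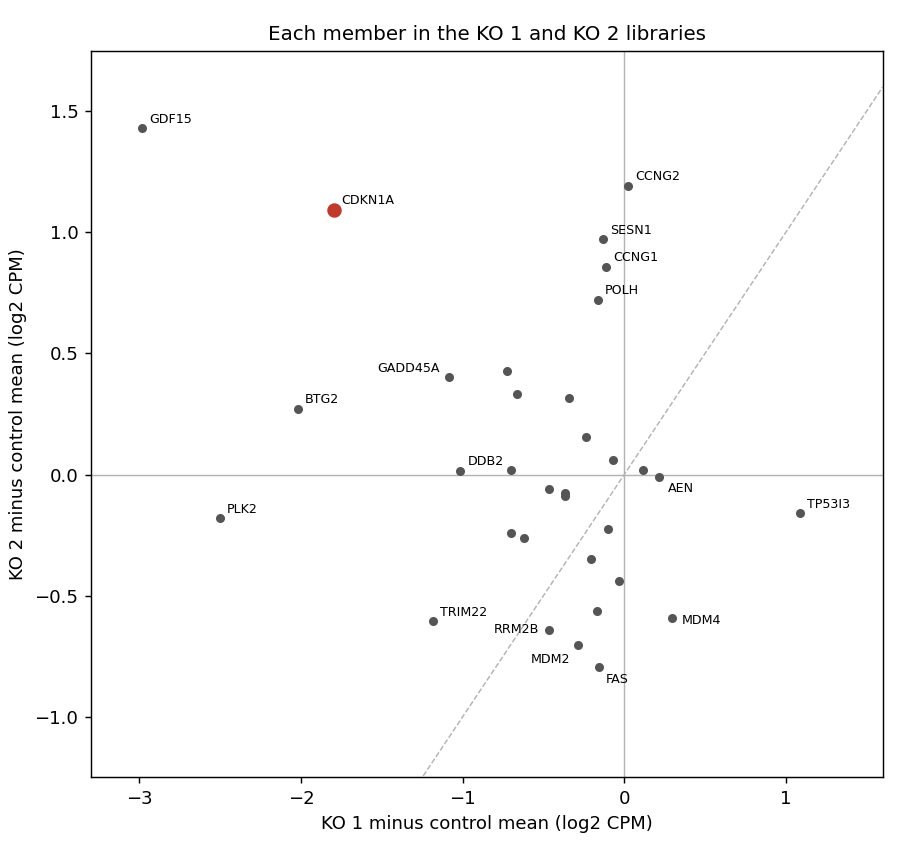
Each gene's log2 CPM in KO 1 (horizontal) and KO 2 (vertical) minus the control mean, with CDKN1A in red and a dashed line of equal values. CDKN1A lies at -1.798 and 1.09 and GDF15 at -2.98 and 1.43, while MDM2 lies below 0 in both libraries. In KO 2, CDKN1A was above both controls and GDF15 was between them.

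Among the other genes of cell cycle arrest, BTG2, PLK2 and GADD45A were, like CDKN1A, at least 1 log2 unit below the control mean in KO 1. PLK3 (-0.17), CCNG1 (-0.11) and CCNG2 (0.02) were not. BTG2, an antiproliferative regulator of mRNA decay, had 2.69 and 13.4 CPM in KO against 5.30 and 23.2 CPM in control. PLK2, a polo-like kinase that responds to stress, had 2.25 and 11.5 CPM in KO against 6.04 and 28.2 CPM in control. For both genes the order was KO 1, control 1, KO 2 and control 2 from low to high, so each KO library lay below the control of the same number, and the groups overlapped. The log2 fold changes were -0.80 ± 0.84 for BTG2 and -1.29 ± 0.86 for PLK2 (SE), with edgeR adjusted p-values of 0.997. Without KO 2 both were lower in KO and called, with log2 fold changes of -2.40 ± 0.53 (BTG2, edgeR adjusted p = 0.00183) and -2.92 ± 0.54 (PLK2, edgeR adjusted p = 8.54e-05), and without control 2 both changed sign, to 0.62 (BTG2) and 0.20 (PLK2).

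GADD45A, a stress sensor that binds p21 and PCNA, had 5.20 and 14.7 CPM in KO against 9.96 and 12.3 CPM in control, so the KO libraries lay on either side of both controls. PLK3, a related polo-like kinase, had 6.91 and 5.24 CPM in KO against 6.44 and 9.37 CPM in control, with the KO libraries in the reverse order. CCNG1, a cyclin that recruits a phosphatase to MDM2, had 408 and 801 CPM in KO against 446 and 438 CPM in control. The controls were almost equal, KO 1 lay just under them and KO 2 stood alone above. CCNG2, a cyclin of resting cells that FOXO factors also induce, had 15.7 and 35.5 CPM in KO against 16.6 and 14.5 CPM in control, with the same isolation of KO 2. Their log2 fold changes were 0.45 ± 0.33 for CCNG1 and 0.73 ± 0.42 for CCNG2 (SE), neither called, and without KO 1 CCNG2 was called as higher (1.20 ± 0.37, edgeR adjusted p = 0.0302), while without KO 2 it was 0.020.

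CCNG1 was the most abundant member per length of exons, at a mean of 169 CPM per kb over the 4 libraries, followed by TRIAP1 at 40.9, TNFRSF10B at 23.3 and AEN at 22.3 CPM per kb. CDKN1A ranked 14 of 33, at 5.24 CPM per kb, and MDM2 ranked 17, at 4.92 CPM per kb. These means set genes beside each other and hide the spread between libraries, which for CDKN1A was wider than the gap to its neighbours in rank.

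Of the genes of DNA repair, 0 were called in KO against control, while between the KO libraries DDB2 and POLH differed more than XPC and RRM2B. RRM2B, the p53-inducible ribonucleotide reductase subunit, had 78.3 and 69.5 CPM in KO against 96.1 and 122 CPM in control, and the groups did not overlap (log2 fold change -0.56 ± 0.27, edgeR adjusted p = 0.997). DDB2, the ultraviolet damage sensor, had 29.4 and 60.1 CPM in KO against 42.2 and 83.7 CPM in control. It followed the order of BTG2 and PLK2, at -0.49 ± 0.43 (SE). XPC, which recognises helix distortions, had 38.0 and 49.9 CPM in KO against 39.6 and 50.6 CPM in control. POLH, the polymerase that bypasses ultraviolet lesions, had 5.42 and 10.1 CPM in KO against 4.21 and 8.75 CPM in control. In XPC and POLH the library number separated the values more than the genotype did.

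Of the receptors and effectors of cell death, 0 were called in KO against control. FAS, the receptor of FAS ligand, had 4.80 and 3.07 CPM in KO against 4.66 and 6.16 CPM in control. The TRAIL receptor gene TNFRSF10A had 11.5 and 8.69 CPM in KO against 11.2 and 12.5 CPM in control, and its relative TNFRSF10B had 99.2 and 121 CPM in KO against 106 and 155 CPM in control. KO 2 was the lowest library for FAS and TNFRSF10A, while for TNFRSF10B that was KO 1. EDA2R, the receptor of ectodysplasin A2, had 5.86 and 9.27 CPM in KO against 5.57 and 9.94 CPM in control. AEN, a nuclease of apoptotic cells, was nearly even, with 150 and 128 CPM in KO against 126 and 133 CPM in control (log2 fold change 0.11, interval -0.48 to 0.69).

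TRIAP1, a small mitochondrial protein that restrains apoptosis, had 55.9 and 50.6 CPM in KO against 71.3 and 58.4 CPM in control, without overlap (log2 fold change -0.28 ± 0.27, edgeR adjusted p = 0.997). PHLDA3, which blocks AKT at the membrane, had 13.7 and 22.6 CPM in KO against 19.6 and 25.3 CPM in control. PHLDA1, a pleckstrin-homology protein induced by growth signalling, had 47.2 and 105 CPM in KO against 51.3 and 119 CPM in control. PHLDA1 split by library number and not by genotype, at a log2 fold change of -0.16 ± 0.48 (SE). TP53INP1, a nuclear and autophagy protein, had 12.0 and 14.7 CPM in KO against 14.2 and 16.9 CPM in control. SUSD6, a membrane protein with a sushi domain, had 7.42 and 8.13 CPM in KO against 6.23 and 9.77 CPM in control. ZMAT3, an RNA-binding zinc finger protein, had 11.3 and 14.9 CPM in KO against 11.6 and 20.9 CPM in control, and like TP53INP1 and SUSD6 it overlapped between the groups.

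Among genes of metabolism and mitochondria, both sestrins were higher in KO 2 than in KO 1, but only SESN1 lay above both controls there. SESN1, an inhibitor of mTORC1 that p53 and FOXO factors induce, had 15.3 and 33.02 CPM in KO against 14.3 and 19.8 CPM in control, with KO 2 alone above (log2 fold change 0.51 ± 0.42, edgeR adjusted p = 0.997). SESN2, the leucine sensor that ATF4 also induces, had 20.5 and 28.3 CPM in KO against 19.6 and 57.0 CPM in control, with control 2 alone above (-0.65 ± 0.48). TP53I3, a quinone oxidoreductase, had 60.6 and 25.6 CPM in KO against 37.4 and 21.8 CPM in control. It was the gene in which KO 1 stood highest relative to KO 2, a log2 difference of -1.24 for KO 2 minus KO 1. FDXR, the ferredoxin reductase of mitochondria, had 21.7 and 27.8 CPM in KO against 26.1 and 42.4 CPM in control. TIGAR, a phosphatase that lowers glycolysis, had 19.5 and 17.9 CPM in KO against 19.4 and 22.6 CPM in control. SPATA18, a factor of mitochondrial quality control, had 2.33 and 4.71 CPM in KO against 3.45 and 4.03 CPM in control, and these last 3 genes overlapped between the groups.

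GDF15, a secreted stress cytokine, spread more than any other member. It had 0.436 and 10.5 CPM in KO against 1.35 and 10.8 CPM in control, from 12, 359, 51 and 385 reads. The libraries numbered 2 were almost equal and both stood far above those numbered 1, so its log2 fold change of -0.11 ± 1.28 (SE) separates nothing by genotype. KO 2 was 24.1-fold above KO 1 (95% exact binomial interval 13.6 to 47.0, counting error only). Without KO 2 it was called as lower in KO (-3.78 ± 0.83, edgeR adjusted p = 0.0025), and without control 2 its sign turned (2.03). TRIM22, an antiviral ubiquitin ligase that interferon also induces, had 25.6 and 38.3 CPM in KO against 47.9 and 71.1 CPM in control, without overlap. Its log2 fold change was -0.89 ± 0.33 (SE), with an interval from -1.65 to -0.14, and edgeR's adjusted p was 0.997 (0.0255 unadjusted). Without control 2 the value was -0.58, and without KO 1 it was -0.62, with unadjusted edgeR values of 0.233 and 0.0902 in that order.

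Of 26 family members, kinases and cofactors, 24 were tested and 0 were called by edgeR, with 0 at an unadjusted p below 0.05. Of these, 5 lay above both controls in both KO libraries, HIPK2, CREBBP, TRIM28, PPP1R13B and TP53BP2 (20.8% against 15.8% of all genes), 0 lay below both in both (background 16.3%), and the list's median log2 fold change was 0.09. A wider list of 79 other p53 targets had 74 tested members and 0 calls, with 11 higher and 10 lower in both KO libraries (14.9% and 13.5%, against 15.8% and 16.3% of all genes). Its median log2 fold change was -0.04. At an unadjusted edgeR p below 0.05 it held 2 of its 74 tested members, both higher in KO. Of all genes, 4.06% passed in either direction and 1.06% as higher in KO. PLCL2, a phospholipase-like protein, had 18.3 and 77.9 CPM in KO against 9.38 and 11.6 CPM in control. ABHD4, a lipid hydrolase, had 57.8 and 64.7 CPM in KO against 36.4 and 30.0 CPM in control. The median of this list was -0.21 in KO 1 and 0.19 in KO 2, relative to the control mean.

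Genes that p21 and the DREAM complex lower did not, as a group, stand lower in KO 2. Of 23 such cell cycle genes, all tested, 0 were called, 20 had a log2 fold change above 0, and 6 were higher in both KO libraries (26.1% against 15.8%). Their median was 0.50 in KO 2 and 0.08 in KO 1 relative to the control mean. CDC20, the activator of the anaphase-promoting complex, had 218 and 296 CPM in KO against 185 and 135 CPM in control (edgeR adjusted p = 0.997, 0.0445 unadjusted). CDK1, the mitotic kinase, had 114 and 197 CPM in KO against 109 and 113 CPM in control. Its highest level, like that of CDKN1A, was in KO 2. The part of CDKN1A in the levels of these cell cycle genes was not tested. Of the other CDK inhibitors, 4 of 6 were tested and 0 were called. CDKN1B, which encodes p27, had 26.3 and 57.3 CPM in KO against 28.8 and 21.4 CPM in control, and CDKN1C, which encodes p57, had 1.64 and 9.18 CPM in KO against 2.86 and 4.90 CPM in control. Like CDKN1A, both were highest in KO 2, as was CDKN2B, which encodes p15, at 0.0727 and 1.05 CPM in KO against 0.0530 and 0.338 CPM in control. CDKN2D, which encodes p19, was lowest there, with 2.07 and 1.87 CPM in KO against 2.44 and 2.59 CPM in control.

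Genes of other programmes that induce some of the members also differed between libraries. The 20 tested immediate early genes had a median log2 difference of 1.804 for control 2 minus control 1 and 1.0 for KO 2 minus KO 1, with summed levels of 739 and 824 CPM in KO against 936 and 2756 CPM in control. Of these 20, 0 were called, 10 were lower in both KO libraries (50% against 16.3% of all genes), and 19 had a log2 fold change below 0. At an unadjusted p below 0.05 there were 10 of the 20, all lower in KO, where 3% of all genes were. FOS had 5.89 and 20.6 CPM in KO against 24.8 and 176 CPM in control. As in BTG2 and PLK2, KO 1 was lowest and control 2 highest, but unlike in those genes both KO libraries lay below both controls. The 15 genes of the integrated stress response had medians of 1.13 for control 2 minus control 1 and 0.14 for KO 2 minus KO 1, with 0 called, 5 lower in both KO libraries (33.3% against 16.3% of all genes) and 1 higher (6.67% against 15.8%). At an unadjusted p below 0.05 there were 4 of the 15, all lower in KO, where 3% of all genes were. CHAC1, like SESN2, was highest in control 2, at 126 CPM. Of 11 FOXO targets tested, 10 were higher in KO 2 than in KO 1, with a median difference of 1.15, and 0 were called. An example is CITED2, with 31.7 and 135 CPM in KO against 45.9 and 44.8 CPM in control. Of 10 fibroblast and stromal markers, 8 averaged at least 1 CPM, DCN and LUM were under it, and the summed level was 631 and 1305 CPM in KO against 631 and 1135 CPM in control, high in the same libraries as CDKN1A. COL1A1 had 46.8 and 552 CPM in KO against 128 and 300 CPM in control, in the same order of libraries as CDKN1A. Summed levels were 547 and 947 CPM in KO against 480 and 794 CPM in control for 8 neuroectoderm markers, 159 and 134 CPM in KO against 286 and 306 CPM in control for 12 mesoderm and endoderm markers, and 18.7 and 19.7 CPM in KO against 15.7 and 28.0 CPM in control for 10 trophoblast and amnion markers. These sums rest on few genes, since 4, 4 and 3 markers of those lists averaged at least 1 CPM, CGA had 0 reads in all 4 libraries and CDX2 had 0 in both KO libraries. Relative to the control mean, the median of the tested markers was 0.26 in KO 1 and 0.52 in KO 2 for neuroectoderm, -0.74 and -2.30 for mesoderm and endoderm, and -2.37 and 0.22 for trophoblast and amnion, in the same order of libraries. Of the markers of these other cell types, 0 were called. At an unadjusted edgeR p below 0.05, 2 of 6 tested markers of mesoderm and endoderm were lower in KO, and 2 of 6 of trophoblast and amnion, where 3% of all genes were. Both KO libraries lay below both controls for 3 (50%) and 2 (33.3%) of them in that order, against 16.3% of all genes. They lay above both for 0 and 1, and for 2 of 7 neuroectoderm markers (28.6% against 15.8%). The part of these programmes and markers in the levels of the members was not tested.

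**Figure D4:**
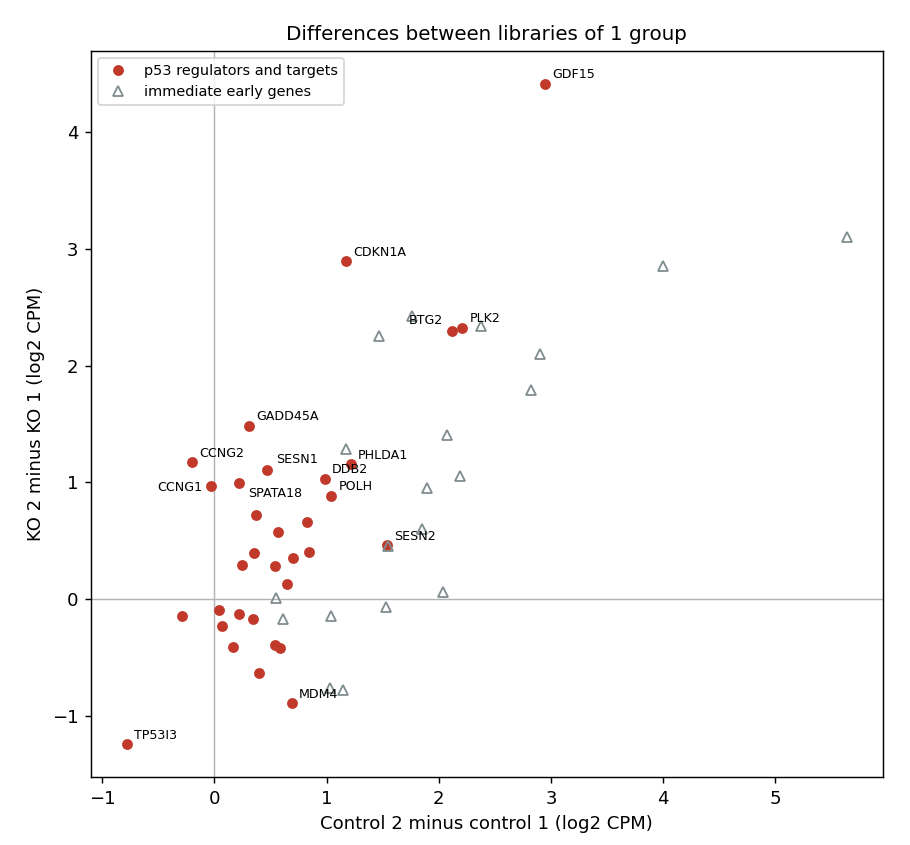
Log2 CPM differences between libraries of the same group, control 2 minus control 1 (horizontal) and KO 2 minus KO 1 (vertical), for the 33 genes (circles) and 20 immediate early genes (triangles). GDF15, CDKN1A, BTG2 and PLK2 lie at the upper right with part of the immediate early genes, CCNG1 and CCNG2 lie above 0 only on the vertical axis, and TP53I3 lies below 0 on both.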

How the data were processed

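RNA was extracted with Trizol and column clean-up and sequenced from stranded mRNA libraries, per the labels' protocols, in 2 KO and 2 control libraries grouped by their titles. The authors deposited raw integer counts for each gene. Per the submitters' processing notes the tools were HTSeq 0.11.0, STAR 2.6.0a, cutadapt 1.8.1 and FastQC 0.11.7, with GRCh38. Neither the annotation release nor the strand setting of the counting is given in the sources used here, and overlapping genes may therefore share reads. On the annotated exons this touches TIGAR (1711 bases shared with a gene on the same strand), TRIM22 (642), PHLDA3 (598) and MDM2 (439). Bases shared with a gene on the other strand were most in XPC (1871), PHLDA1 (1332) and MDM2 (918). Smaller overlaps of this kind were in TNFRSF10A (490), FAS (380), SESN1 (363), CDKN1A (146), TIGAR (121), TP53I3 (80), PLK3 (78), TNFRSF10B (67) and POLH (4). The labels' protocols also mention quantile normalisation, which whole counts with unequal totals do not carry. Alignments given to no single gene, 14.4% to 20.3% per library, were left out.

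Names came from GENCODE 29 (93.8% of identifiers matched). Genes were filtered with filterByExpr (minimum count 10), scaled by TMM and tested in R 4.3.3 by edgeR 4.0.16's robust quasi-likelihood F test (two-sided). Benjamini-Hochberg adjustment ran over 19027 genes, with a threshold of 0.05. The fit was tested on simulated data. SE is the log2 fold change over the square root of F, and intervals are 95%. Log2 CPM of single libraries used a prior count of 2. The biological coefficient of variation was 36.3%. Replicates were not copies (chi-square per degree of freedom 124 between the KO libraries and 54.6 between the controls). Promoters came from RefSeq (GRCh38.p14), with none for GADD45A, RRM2B, TNFRSF10A, TNFRSF10B, PHLDA3, TP53INP1 and TRIM22.

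The members, lists and tests were chosen with earlier results of these data known. Every member is named, as the rule for named genes asks. For each other list the rule asked for up to 3 genes with the smallest p. It was not kept throughout, and more than 3 are named for the family members, kinases and cofactors and for the other CDK inhibitors. Values were already in view when HIPK2, CREBBP, TRIM28, PPP1R13B, TP53BP2, CDK1, CDKN1C, CDKN2B, CDKN2D, FOS, CITED2, COL1A1, DCN, LUM, CGA and CDX2 were picked for naming. The settings varied were the scaling (RLE, upper quartile, library size only), the tool (DESeq2 1.42.0, limma-voom from limma 3.58.1, the legacy fit), the filter, a block for the replicate number, the prior count and single libraries left out.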

Additional observations from a re-analysis of the deposited data

How the results depend on the processing

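The calls over all genes varied with the method. From 5 genes the count went to 60 with DESeq2, 76 with the replicate block, 8 with no filter, 1 with the legacy fit, and 0 with limma-voom, upper-quartile factors, a mean CPM of at least 1 and library size only, and it ranged from 3 to 1096 with single libraries left out. The count of members called was 0 in every alternative except without single libraries, where it ranged from 0 to 4. The replicate number is not said to mark a shared day or culture. The deviations of same-numbered libraries from their group means had a correlation of 0.326, which with 2 pairs cannot show a pairing, and the block called 0 members. SLC35F2 was called with DESeq2 (-1.65), with the replicate block (-1.63) and without either KO library, with values from -1.92 to -1.31 over single libraries left out. Library size only moved the median of all genes by -0.13, and the median of the other 32 members in KO 2 to -0.21. That median ranged from -0.23 to 0.27 with either control left out, and CDKN1A in KO 2 from 0.51 to 1.68.

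The log2 fold change of MDM2 kept its sign in all 13 alternatives, with a range from -0.77 to -0.19 over single libraries left out, where that of CCNG2 was 0.020 to 1.20. That of CDKN1A reversed to -0.29 with the replicate block, -0.27 with limma-voom and -0.0092 with library size only, and ranged from -1.93 to 0.997 with single libraries left out. With library size only AEN reversed to -0.019 and PPM1D to -0.060, with upper-quartile factors PPM1D reversed to -0.018, and with limma-voom EDA2R reversed to 0.012 and SUSD6 to 0.0031. With single libraries left out, the signs of 19 other members turned in at least 1 fit. Their ranges were -0.62 to 0.26 for MDM4, -2.40 to 0.62 for BTG2, -0.11 to 0.87 for CCNG1, -2.92 to 0.20 for PLK2, -1.10 to 0.41 for GADD45A, -0.25 to 0.16 for XPC, -1.10 to 0.086 for DDB2, -0.25 to 0.88 for POLH, -0.48 to 0.049 for TNFRSF10B and -0.40 to 0.45 for EDA2R. They were -0.85 to 0.57 for PHLDA1, -0.71 to 0.021 for PHLDA3, -0.32 to 0.32 for SUSD6, -0.66 to 0.18 for ZMAT3, -0.15 to 0.97 for SESN1, -1.21 to 0.32 for SESN2, -0.20 to 1.04 for TP53I3, -0.68 to 0.35 for SPATA18 and -3.78 to 2.03 for GDF15. The cause of these reversals was not tested.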
